A study of Mus musculus with 26 samples.

Results

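The 6 genes Dusp1, Dusp2, Dusp4, Dusp5, Dusp6 and Dusp10 encode dual-specificity phosphatases that act on mitogen-activated protein (MAP) kinases. They were taken by symbol from a table of 13765 genes measured in double positive (DP) cells, the thymocyte stage with both CD4 and CD8 on its surface. The cells came from the aortic arch, from the adipose tissue of the mediastinum and from the thymus of female C57BL/6J mice aged 8 weeks, for which the labels give no treatment. Each tissue was represented by 4 pools of 5 mice, and 26 libraries of 200 cells each (9 arch, 8 adipose, 9 thymus) had been combined into 1 value per gene and pool. All cells had been sorted as viable, CD4+, CD8b+ and TCR-, so the values describe cells without a surface T-cell receptor. Arch and adipose tissue were digested before the sort, digestion is not stated for the thymus, and tissue and digestion therefore cannot be told apart in the comparisons with thymus. All 6 genes were measured, and 5 passed the filter on low values that left 9106 genes for testing; Dusp4 did not. Values are normalised read counts, that is reads divided by a size factor for each pool, and the pools held 11577253 to 34599519 reads. Genes were called where the adjusted p of limma, a linear model of log2(normalised read count + 20) fitted to all genes and pools, was under 0.05.

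MAP kinases are switched on by phosphate on a threonine and a tyrosine of the activation loop, and these phosphatases remove both. Dusp1, Dusp2, Dusp4 and Dusp5 act in the nucleus and are transcribed soon after a stimulus. Dusp5 and the cytoplasmic Dusp6 act on ERK, the extracellular signal-regulated kinases. Dusp10 acts on the stress-activated kinases p38 and JNK, and Dusp1 on these and ERK. Several of these genes are themselves induced by the kinases they switch off, which makes them feedback regulators. In thymocytes, ERK activity downstream of the antigen receptor is needed for positive selection.

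Dusp1, Dusp5 and Dusp10 rose in DP cells of both tissues outside the thymus, and the sequences before their transcription starts are shown because these 3 genes carry that result. RefSeq promoter entries of the build GRCm38.p6 were found for 5 of the 6 genes. The windows begin 250 bases before the RefSeq start and stop short of the annotated exons of the gene itself; longer annotated forms of Dusp1 and Dusp10 start further upstream, so these 2 windows lie within introns of those forms. On the opposite strand, the antisense transcript AC137853.2 covers the whole Dusp5 window, and 1700056E22Rik covers 171 of the 250 bases of the Dusp10 window. They span chr17:26508520-26508722 on the minus strand for Dusp1 (203 bases), chr19:53528895-53529108 on the plus strand for Dusp5 (214 bases) and chr1:184034131-184034380 on the plus strand for Dusp10 (250 bases). They are printed 5′ to 3′ along the gene, in lower case, with matches to the searched motifs in capitals.
Dusp1: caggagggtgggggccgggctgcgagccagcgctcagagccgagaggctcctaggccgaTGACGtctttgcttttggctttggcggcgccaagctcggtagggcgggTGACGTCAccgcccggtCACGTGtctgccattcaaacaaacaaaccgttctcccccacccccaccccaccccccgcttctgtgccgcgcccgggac
Dusp5: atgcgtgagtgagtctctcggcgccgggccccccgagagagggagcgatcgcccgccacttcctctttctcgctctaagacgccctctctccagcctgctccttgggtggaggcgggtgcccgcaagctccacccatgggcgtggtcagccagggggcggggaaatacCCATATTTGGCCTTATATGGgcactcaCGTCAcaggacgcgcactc
Dusp10: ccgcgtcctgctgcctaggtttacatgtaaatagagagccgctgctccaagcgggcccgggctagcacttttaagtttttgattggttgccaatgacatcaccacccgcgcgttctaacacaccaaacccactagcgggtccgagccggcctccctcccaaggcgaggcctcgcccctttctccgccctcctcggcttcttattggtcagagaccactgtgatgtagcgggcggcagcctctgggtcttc
In Dusp1 the capitals mark, in order, TGACG, TGACGTCA and CACGTG. TGACGTCA, the full cyclic AMP response element, lay at bases -143 to -136 from the start and holds TGACG on either strand; 1.55% of 32851 promoters held it in the 250 bases before the start. A separate TGACG lay at -191 (17.8% of promoters) and CACGTG, an E-box, at -126 (6.02% of promoters). In Dusp5 the capitals mark a pair of adjacent CArG boxes, the motif bound by serum response factor, at -82 to -73 and -72 to -63, and then TGACG on the opposite strand (read as CGTCA) at -55. A CArG box was found in 1.47% of promoters. The Dusp10 window held none of the 6 motifs searched, and neither did that of Dusp6, while that of Dusp2 held CACGTG at -109. The remaining searches, for the AP-1 site TGANTCA (6.75% of promoters) and the heat shock core GAANNTTC (6.69%), found no match in the windows of the 5 genes. Both strands were searched. These are matches of letters and say nothing of binding in these cells.

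Dusp1, whose product acts on p38, JNK and ERK in the nucleus, had the smallest p of the tested phosphatase genes in both comparisons with thymus. Its normalised read counts were 10373, 6612, 10995 and 8172 in arch pools 1 to 4, 6460, 7943, 10200 and 7665 in adipose pools 1 to 4, and 1289.5, 510.1, 1106 and 486.7 in thymus pools 1 to 4. Every arch pool and every adipose pool lay above every thymus pool, and the lowest of them was several times the highest thymus value. Dusp1 rose 11.2-fold in arch against thymus (95% interval 6.86 to 18.3), a change of 3.48 ± 0.34 (SE, n = 4 pools per tissue) in log2(normalised read count + 20), with a limma adjusted p of 2.36e-06. In adipose tissue against thymus it rose 10.1-fold (6.16 to 16.4), by 3.33 ± 0.34, with a limma adjusted p of 5.1e-06. Among the 9106 tested genes it had rank 17 by p in arch and rank 16 in adipose tissue. Both comparisons share the thymus pools. The gene lies at chr17:26505591-26508472 on the minus strand in RefSeq (GRCm38).

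Dusp10, whose product acts on p38 and JNK, was expressed in all pools and differed less. Its counts were 11638, 7710, 6873 and 3906 in arch pools 1 to 4, 6286, 9597, 8004 and 6982 in adipose pools, and 2204, 4243, 3941 and 2856 in thymus pools. All adipose pools lay above all thymus pools, whereas arch pool 4 lay below thymus pools 2 and 3, so that 14 of 16 pairs of an arch and a thymus pool had the arch value higher. Dusp10 rose 2.18-fold in arch against thymus (95% interval 1.38 to 3.44; log2 change 1.12 ± 0.31, SE; limma adjusted p = 0.0378) and 2.37-fold in adipose tissue against thymus (1.503 to 3.74; 1.24 ± 0.31; limma adjusted p = 0.0348). Both calls were near the threshold. In arch against thymus the call was lost without arch pool 1, 2 or 3 or thymus pool 1 or 4 (limma adjusted p 0.062 to 0.116), and in adipose tissue against thymus without any single adipose pool or thymus pool 1 or 4 (0.0522 to 0.12). The change stayed between 0.88 and 1.40 in arch and between 1.07 and 1.38 in adipose tissue over these fits. edgeR gave an adjusted p of 0.0449 in arch and 0.0534 in adipose tissue. The gene lies at chr1:184034381-184075636 on the plus strand.

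Dusp5, the nuclear phosphatase for ERK, was low in thymus and high outside it. Its counts were 4397, 686.7, 2448 and 866 in arch pools 1 to 4, 3945, 2566, 2290 and 3760 in adipose pools, and 320.9, 384.5, 297.1 and 146.8 in thymus pools. No arch or adipose pool overlapped the thymus pools. The arch pools fell into a high pair, pools 1 and 3, and a low pair, pools 2 and 4, which lay below every adipose pool. Dusp5 rose 5.53-fold in arch against thymus (95% interval 2.37 to 12.9; log2 change 2.47 ± 0.58, SE; limma adjusted p = 0.014) and 10.5-fold in adipose tissue against thymus (4.51 to 24.5; 3.396 ± 0.58; limma adjusted p = 0.00152). Without arch pool 1 the arch change was 1.98 ± 0.59 and missed the threshold (limma adjusted p = 0.0524). Without arch pools 2 and 4 it was 3.50 ± 0.53 (limma adjusted p = 0.000948). The gene lies at chr19:53529145-53541809 on the plus strand.

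**Figure D1:**
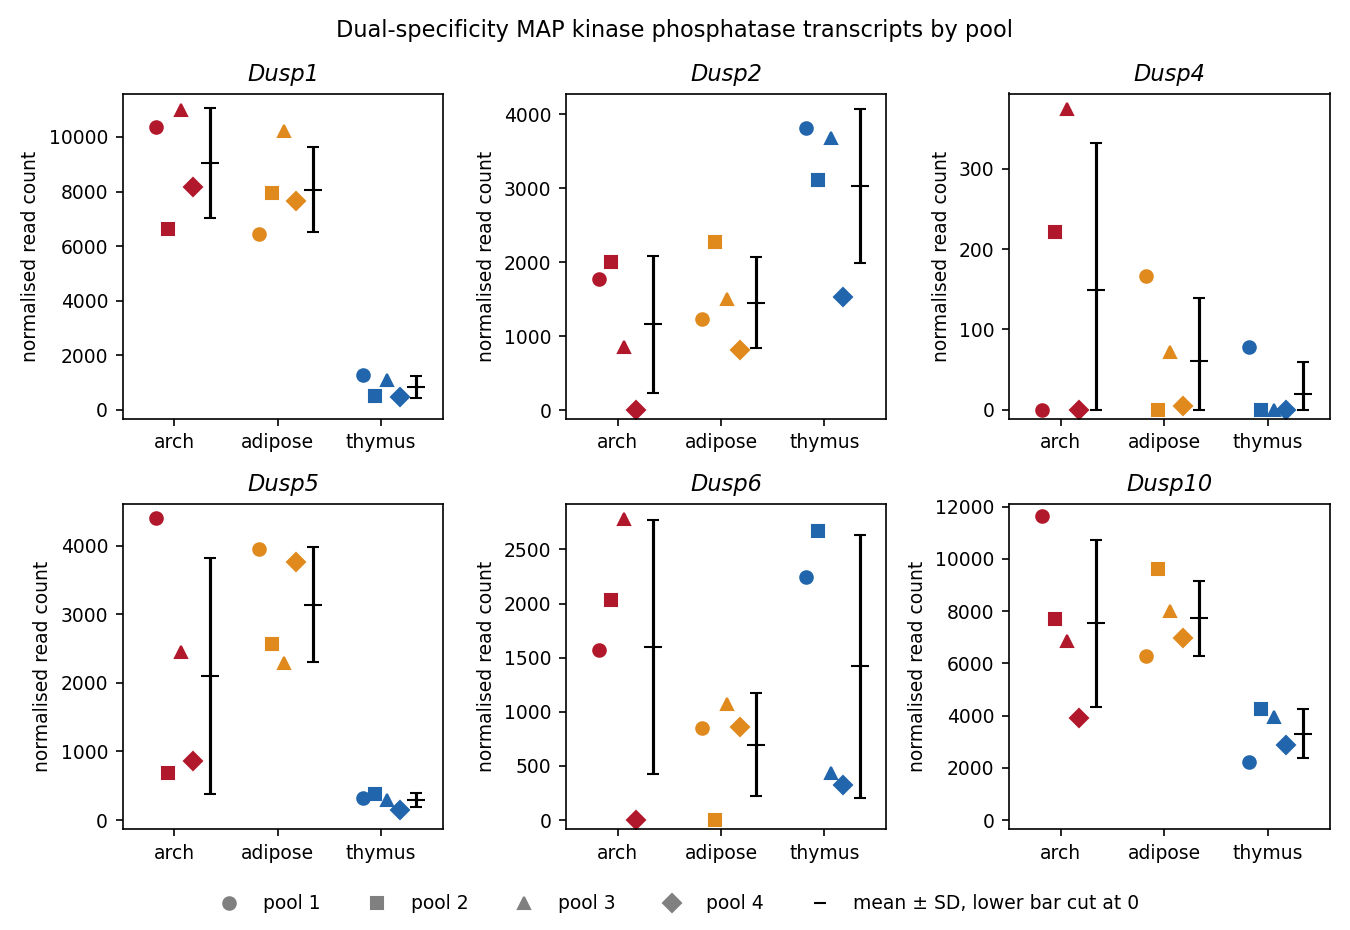
Normalised read counts (y axis, linear, a separate scale per gene) of the 6 phosphatase genes in aortic arch, mediastinal adipose tissue and thymus, with 1 symbol per pool and the mean ± SD of 4 pools as bars, the lower bar ending at 0. All arch and adipose values of Dusp1 and Dusp5 stand above all thymus values, and the pool at 0 for Dusp2 in arch is pool 4.

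Dusp2, a nuclear phosphatase of ERK and p38 found mainly in blood cells, pointed the other way in its means and did not pass the test. Its counts were 1780, 2011, 852 and 0 in arch pools 1 to 4, 1228, 2270, 1501 and 821.3 in adipose pools, and 3811, 3109, 3676 and 1536 in thymus pools. The groups overlapped through thymus pool 4, which lay below arch pools 1 and 2 and adipose pool 2. The arch mean was 1161 ± 922 and the adipose mean 1455 ± 611, against 3033 ± 1040 in thymus (SD, n = 4 each). The log2 change was -2.52 ± 1.01 in arch against thymus (limma adjusted p = 0.144, unadjusted p 0.0227) and -1.06 ± 1.01 in adipose tissue against thymus (limma adjusted p = 0.767). The arch value turned on arch pool 4, without which the change was -0.97 ± 0.47 (limma adjusted p = 0.233). No Dusp2 read among the 14291241 reads of that pool allows a normalised count of up to 4.66 (3 reads). The gene lies at chr2:127336159-127338377 on the plus strand.

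Dusp6, the cytoplasmic ERK phosphatase, had the largest error of the 5 tested genes. Its counts were 1576, 2035, 2783 and 0 in arch pools 1 to 4, 853.1, 0, 1073 and 863.2 in adipose pools, and 2247, 2670, 439.9 and 321.7 in thymus pools. Each tissue held high and low pools, and the ranges overlapped in every comparison. The log2 changes were -0.60 ± 1.45 in arch against thymus, -1.46 ± 1.45 in adipose tissue against thymus and 0.86 ± 1.45 in arch against adipose tissue (SE; limma adjusted p 0.848, 0.78 and 0.87). The 95% interval in arch against thymus ran from -3.63 to 2.44, so it excluded neither a large rise nor a large fall. Without arch pool 4 the arch change was 1.08 ± 1.13. Without adipose pool 2, which was 1 library, the change in adipose tissue against thymus was -0.07 ± 1.31. The gene lies at chr10:99263231-99267489 on the plus strand.

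Dusp4, a nuclear phosphatase of ERK, JNK and p38, was close to the detection limit. Its counts were 0, 220.7, 374.7 and 0 in arch pools 1 to 4, 166.8, 0, 72.3 and 4.49 in adipose pools, and 78.7, 0, 0 and 0 in thymus pools. It had 580 reads in all arch pools together, 398 in adipose pools and 139 in thymus pools, the last all in pool 1. The arch mean was 149 ± 183 and the adipose mean 60.9 ± 78, against 19.7 ± 39.3 in thymus (SD, n = 4 each). Exact two-sided permutation tests of the means gave p = 0.429 in arch against thymus, 0.543 in adipose tissue against thymus and 0.543 in arch against adipose tissue (0.543 each after adjustment over the 3 tests), where 4 pools against 4 cannot go below 0.0286. The gene lies at chr8:34807610-34819894 on the plus strand.

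In arch against thymus 3 of the 5 tested phosphatase genes rose and 0 fell, against a background of 3.99% of all tested genes higher and 2.58% lower. In adipose tissue against thymus the same 3 rose and 0 fell, with 2.17% of all tested genes higher and 0.67% lower. The genes were chosen with earlier results of these data known, so these shares are no test of the family. edgeR and DESeq2 also called 0 of the 5 lower. Of all 9106 tested genes, edgeR called 87 lower in arch and 42 in adipose tissue, and DESeq2 393 and 143. At an unadjusted limma p under 0.05 Dusp2 joined the 3 genes in arch, where 22.7% of all tested genes passed that limit, and none joined them in adipose tissue (12.8%). The median log2 change of the 5 was 1.12 in arch and 1.24 in adipose tissue, where the median of all 9106 genes was -0.21 and -0.01. Pool values lay wholly above thymus for Dusp1 and Dusp5 in arch and for Dusp1, Dusp5 and Dusp10 in adipose tissue. Of all tested genes, 6.6% lay wholly above thymus in arch and 5.48% in adipose tissue. edgeR on the recovered reads called Dusp1, Dusp5 and Dusp10 higher in arch (3.05% of all tested genes) and Dusp1 and Dusp5 in adipose tissue (1.87%). DESeq2 called all 3 genes higher in both (6.73% of all tested genes in arch and 4.36% in adipose tissue).

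**Figure D2:**
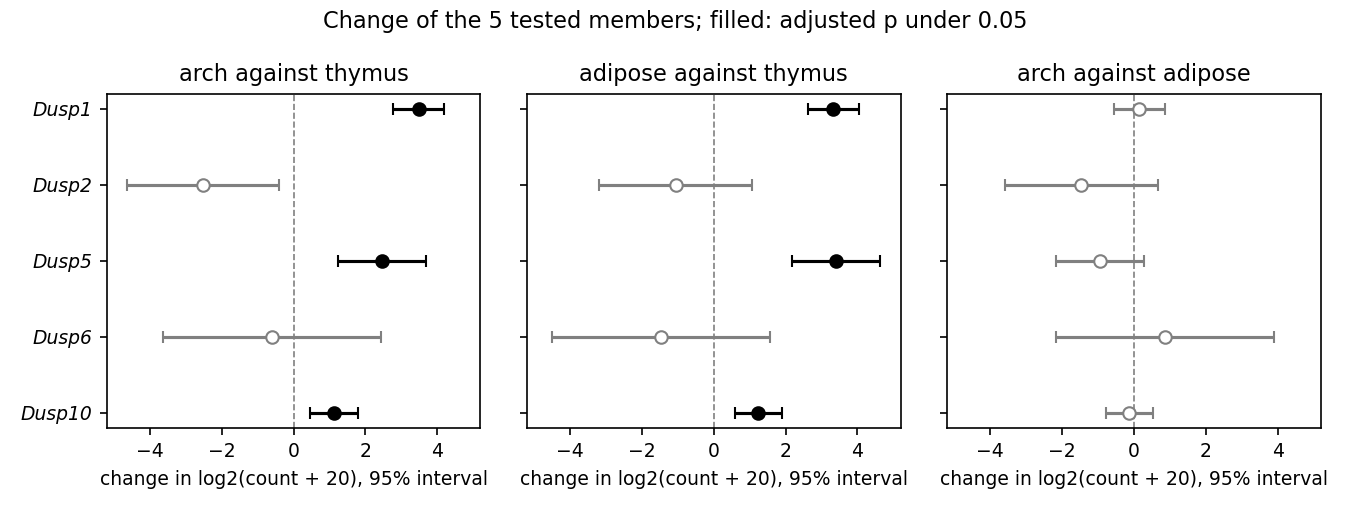
Change in log2(normalised read count + 20) on the x axis with 95% intervals from the limma fit, for the 5 tested phosphatase genes (rows) in arch against thymus, adipose tissue against thymus and arch against adipose tissue; filled points have an adjusted p under 0.05. Dusp1, Dusp5 and Dusp10 lie right of 0 in both comparisons with thymus, with Dusp1 at 3.48 and 3.33.

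Between arch and adipose tissue 0 of the 5 genes passed (limma), and 0 by edgeR or DESeq2. These tools called 0.176% (limma), 0.0879% (edgeR) and 1.89% (DESeq2) of all tested genes in either direction. At an unadjusted limma p under 0.05 the count was also 0, against 10.5% of all tested genes. The pools of the 5 genes overlapped, and 5.35% of all tested genes did not overlap. Dusp1 averaged 9038 ± 2020 in arch and 8067 ± 1560 in adipose tissue (SD, n = 4 each), a log2 change of 0.15 with a 95% interval of -0.55 to 0.86. Dusp10 averaged 7531 ± 3190 in arch and 7717 ± 1440 in adipose tissue, a change of -0.12 (-0.78 to 0.54). For Dusp5 the means were 2099 ± 1720 in arch and 3140 ± 833 in adipose tissue, a change of -0.93 (-2.15 to 0.29), which was 0.10 without arch pools 2 and 4. As ratios of arch over adipose tissue the intervals ran from 0.682 to 1.82 for Dusp1, from 0.583 to 1.45 for Dusp10 and from 0.225 to 1.23 for Dusp5.

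Both the sum of the phosphatase transcripts and their mixture were different outside the thymus. Counts were divided by the exon length of each gene to compare levels between genes. Per kb of exon, the 6 genes summed to 8477 ± 2790 in arch and 8377 ± 817 in adipose tissue, against 3952 ± 1130 in thymus (SD, n = 4 each), and no arch or adipose pool overlapped the thymus pools. Dusp1 held 47.6% ± 14.6 of this sum in arch and 40.4% ± 4.72 in adipose tissue, against 9.08% ± 3.18 in thymus. Dusp2 held 7.81% ± 6.84 in arch and 10.6% ± 3.81 in adipose tissue, against 46.8% ± 6.04 in thymus. The Dusp1 and Dusp2 shares thus traded places, and for either share no arch or adipose pool overlapped a thymus pool (Dusp1 36.4% to 67.8% in arch and 4.63% to 11.8% in thymus). Shares of a sum are tied, so a rise of Dusp1 by itself lowers the share of Dusp2. The Dusp2 counts overlapped those of thymus in both comparisons and did not pass (limma adjusted p 0.144 in arch and 0.767 in adipose tissue).

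In each of the 4 arch and 4 adipose pools Dusp1 was the highest per kb and Dusp10 the second. Dusp2 was the highest in each of the 4 thymus pools. The level of Dusp1 per kb was 2.24 to 8.79 times that of Dusp2 in the 3 arch pools with Dusp2 reads, 2.38 to 6.36 times in the adipose pools and 0.112 to 0.231 times in the thymus pools. Dusp10 had a similar mean share throughout, at 28.7% ± 4.96 in arch and 30.1% ± 3.49 in adipose tissue, against 29.3% ± 10.5 in thymus. Dusp5 held 9.04% ± 4.98 in arch and 15.6% ± 5.55 in adipose tissue, against 2.9% ± 0.316 in thymus. Dusp6 held 6.2% ± 4.8 in arch and 3.04% ± 2.03 in adipose tissue, against 11.7% ± 8.59 in thymus. Dusp4 was below 1% on average in each tissue (0.622% in arch and 0.28% in adipose tissue, against 0.157% in thymus).

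By mean level per kb the order was Dusp1, Dusp10, Dusp5, Dusp2, Dusp6, Dusp4 in arch and in adipose tissue, and Dusp2, Dusp10, Dusp6, Dusp1, Dusp5, Dusp4 in thymus. Some neighbours in these orders did not differ beyond their spread. In arch, Dusp5 lay above Dusp2 in 3 of 4 pools and Dusp2 above Dusp6 in 2 of 4. In adipose tissue Dusp5 lay above Dusp2 in 2 of 4 pools, while Dusp10 and Dusp5 had ranges that did not overlap. In thymus Dusp6 lay above Dusp1 in 2 of 4 pools, and Dusp1 above Dusp5 in 4 of 4 with ranges apart. Shares and orders were not tested, since they were described after the values were seen.

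**Figure D3:**
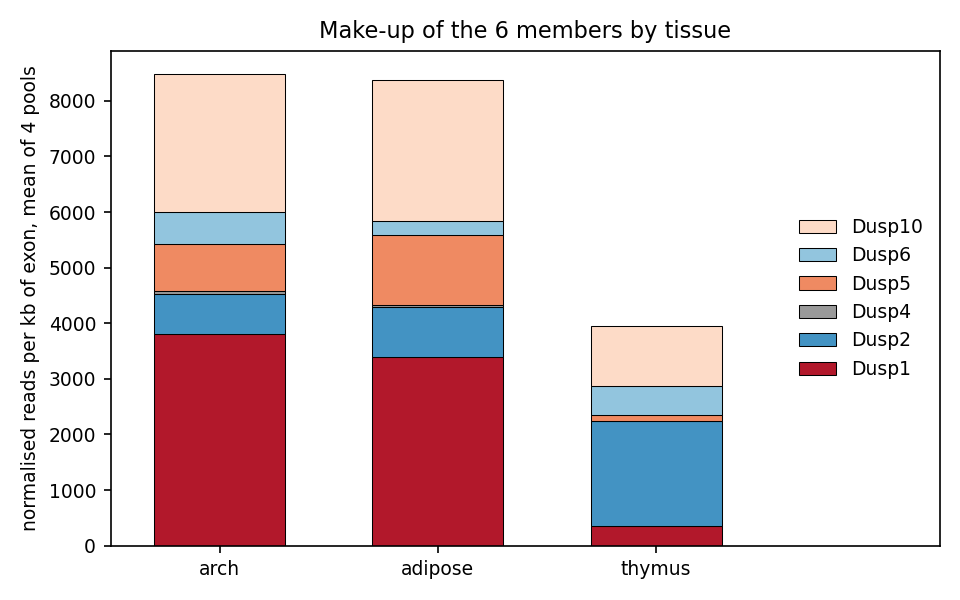
Normalised reads per kb of exon (y axis, from 0), mean of 4 pools, stacked by gene for arch, adipose tissue and thymus. Dusp1 and Dusp10 make up most of the arch and adipose bars, and Dusp2 is the largest part of the thymus bar.

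Sums of genes listed as markers of cell types outside the sort gate differed between pools, and these values stand beside the arch results. Each of 12 DP thymocyte markers, Cd4, Cd8a, Cd8b1, Rag1 and Ptcra among them, was detected in every pool, and they summed to 9889 to 11460 CPM (reads scaled to the same total in each pool) in arch pools and 8914 to 15840 in adipose pools, against 23900 to 27110 in thymus pools. All markers of types outside the gate summed to 1253, 4600, 1441 and 7220 CPM in arch pools 1 to 4, 3490, 1370, 1199 and 1074 in adipose pools, and 1265, 1029, 1012 and 1446 in thymus pools. Some of these genes had reads in every pool, so the sums do not measure cells outside the gate alone. In thymus, Gsn of the fibroblast list was at 88.9 to 298 CPM, Pecam1 at 27.7 to 107 and Gzma at 83.8 to 95.1. The thymic epithelium list summed to 423.1 to 706.3 CPM there, 695 to 1001 in arch and 486.4 to 862.7 in adipose tissue. The 10 fibroblast markers summed to 125.3 to 6074 CPM in arch and 59.1 to 389.8 in adipose tissue, against 88.9 to 298.4 in thymus, with Pdgfra at 0 in 3 arch pools and in all adipose and thymus pools. The 6 smooth muscle markers reached 1850 CPM in arch pool 2, against at most 7.87 in adipose tissue and 3.31 in thymus. The 9 macrophage and monocyte markers reached 1024 CPM in that pool, 243.1 in adipose pool 1 and 9.998 at most in thymus, where C1qa and Csf1r were at 0.

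Arch pools 2 and 4 had the highest sums over all types outside the gate, but through different lists. In pool 2 the fibroblast, smooth muscle, and macrophage and monocyte markers summed to 312.7, 1850 and 1024 CPM. In pool 4 these lists summed to 6074, 0.56 and 0.07 CPM. Pools 2 and 4 were also the arch pools with the lower Dusp5 counts, and pool 4 was the one at 0 for Dusp2 and Dusp6. Of 9106 tested genes, 14.3% were at 0 in arch pool 2 and 16.2% in arch pool 4, against 1.98% to 9.81% in adipose pools and 3.93% to 11.4% in thymus pools. Of 4027 genes with at least 500 in the other arch pools, 93 were at 0 in arch pool 4 (2.31%). Dusp1 was as large without arch pools 2 and 4, at 3.75 ± 0.40 (limma adjusted p = 3.5e-05), and Dusp10 was at 1.48 ± 0.33 (0.0159). B cell markers summed to 1758 CPM in adipose pool 1, against 32.8 to 183.1 in the other adipose pools. Without it Dusp1 was at 3.43 ± 0.37 (limma adjusted p = 3.33e-05) and Dusp5 at 3.27 ± 0.66 (0.0107) in adipose tissue against thymus, and Dusp10 missed the threshold at 1.34 ± 0.34 (0.0522). In bulk samples, fewer cells of a type and less RNA per cell cannot be told apart.

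The rest of the MAP kinase pathway was described from 10 lists with 85 tested genes of 124 listed. In arch against thymus 8 of these genes rose (9.41%, against 3.99% of all tested genes) and 2 fell (2.35%, against 2.58%). In adipose tissue against thymus 3 rose (3.53%, against 2.17%) and 3 fell (3.53%, against 0.67%). All 10 lists were chosen with earlier results of these data known, so these shares are no test of the pathway. The tools differed in arch against thymus, where edgeR called 5 of the 85 genes in either direction (4.01% of all tested genes) and DESeq2 18 (11%). In adipose tissue against thymus edgeR called 3 (2.33% of all tested genes) and DESeq2 8 (5.93%). Between arch and adipose tissue 0 of 85 passed in limma (10 at an unadjusted p under 0.05, 0 with edgeR, and Errfi1 and Ier2 with DESeq2). The other typical MAP kinase phosphatases had 2 tested genes, of which 0 passed in limma or edgeR. Dusp8, a JNK and p38 phosphatase, had counts of 257.3, 0, 164.8 and 108.8 in arch pools, 116.8, 0, 0 and 0 in adipose pools and 0 in all thymus pools. DESeq2 called it in both comparisons with thymus. Dusp8 passed the filter on low values only through arch and adipose pools, so these calls are no independent support. Its mean was at least 49.2-fold higher in arch and at least 10.8-fold higher in adipose tissue than 3 reads in each thymus pool would give, the adipose value resting on pool 1. Dusp16, a JNK phosphatase, had counts of 46.6 to 1128 in arch and 0 to 391.1 in adipose tissue, against 0 to 732.3 in thymus. The median of the 2 fitted changes was 2.21 in arch and 0.39 in adipose tissue.

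Of the atypical dual-specificity phosphatases, which lack the kinase-binding domain of the typical ones, 0 of 4 tested genes passed in limma, edgeR or DESeq2 in any comparison, with Dusp19 alone at an unadjusted p under 0.05 (-3.26 ± 1.22 in arch against thymus and -2.99 ± 1.22 in arch against adipose tissue). Dusp11, an RNA phosphatase of this group, was at 3149 ± 680 in arch and 3779 ± 1020 in adipose tissue, against 3069 ± 966 in thymus (SD, n = 4 each). Of 6 other phosphatases that act on MAP kinases, 1 rose in arch: Ppp2ca, a catalytic subunit of protein phosphatase 2A, by 0.98 ± 0.25 (limma adjusted p = 0.0232; edgeR 0.0564), a call that was lost without arch pool 4 or thymus pool 1 or 2. The list medians were 0.12 and 0.03 in arch and 0.14 and 0.07 in adipose tissue.

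Most kinases that the phosphatases act on did not pass. Of 7 tested MAP kinases 0 passed in limma in arch against thymus (2 at an unadjusted p under 0.05, 0 with edgeR, Mapk9 with DESeq2) and 1 rose in adipose tissue against thymus. Mapk9, which encodes JNK2, rose by 1.57 ± 0.31 in adipose tissue (limma adjusted p = 0.00611) and was at 1.03 ± 0.31 in arch (0.0544). Its level was 4298 ± 1030 in arch and 6295 ± 1700 in adipose tissue, against 2098 ± 575 in thymus (SD, n = 4 each). Mapk3, an ERK gene, was at -1.40 ± 1.08 in arch and 0.26 ± 1.08 in adipose tissue. Mapk14, which encodes p38 alpha, was at 0.37 ± 0.41 in arch and 0.39 ± 0.41 in adipose tissue, and Mapk8, which encodes JNK1, at 2.61 ± 0.95 and 1.54 ± 0.95. The list median was 0.37 in arch and 0.48 in adipose tissue.

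Upstream of the kinases, 0 of 7 MAP2 kinases passed in limma in either comparison (1 at an unadjusted p under 0.05 in each, 0 with edgeR, and Map2k3 in arch with DESeq2). Of 13 MAP3 and MAP4 kinases (Tnik and Mink1 are the MAP4 kinases), Map3k5 rose in both comparisons and Araf fell in arch. Map3k5, which encodes the stress-responsive kinase ASK1 upstream of JNK and p38, averaged 395.6 ± 236 in arch and 898.0 ± 295 in adipose tissue and had 0 reads in all 4 thymus pools. Its fitted log2 change was 4.14 ± 0.92 in arch and 5.46 ± 0.92 in adipose tissue (limma adjusted p = 0.00919 and 0.00129), called in 8 of 8 fits without 1 pool in each. Map3k5 also passed the filter on low values only through arch and adipose pools, so these calls are no independent support. Its mean was at least 147-fold higher in arch and at least 333-fold higher in adipose tissue than 3 reads in each thymus pool would give, bounds that were not tested. Araf, a Raf kinase of the ERK arm, fell by 2.09 ± 0.61 in arch (limma adjusted p = 0.0477; edgeR 0.174), kept in the fits without arch pool 1 or 3 and lost in the other 6. Without arch pool 4 its change was -1.35 ± 0.43 (limma adjusted p = 0.076), and without arch pools 2 and 4 it was -0.99 ± 0.43 (0.248).

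The list of Ras proteins and regulators had 15 tested genes. Rasgrp1, the exchange factor that couples the antigen receptor to Ras in thymocytes, fell by 1.13 ± 0.30 in arch and by 1.24 ± 0.30 in adipose tissue (limma adjusted p = 0.0282 and 0.0253; edgeR 0.0503 and 0.0607). It averaged 3737 ± 914 in arch and 3593 ± 1600 in adipose tissue, against 8021 ± 885 in thymus (SD, n = 4 each), with no overlap with thymus in either comparison. Its call was kept in arch only in the fits without arch pool 1 or 4 (highest adjusted p 0.0877 in the other 6) and in adipose tissue only without adipose pool 2 (0.109 in the other 7). Rasal3, a Ras GTPase activator of lymphocytes, fell by 2.00 ± 0.47 in adipose tissue (limma adjusted p = 0.0227; edgeR 0.0821), a call lost without adipose pool 3 or thymus pool 1, 3 or 4.

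A list of 11 tested genes of the transcriptional response to ERK held 7 transcripts known to be induced and 4 factors that mediate the response (Srf, Elk1, Elk3 and Elk4). In arch 3 of the 11 rose and 0 fell, where 3.99% of all tested genes rose and 2.58% fell. Ier2 rose by 2.62 ± 0.32 (limma adjusted p = 3.04e-05), Fos by 4.17 ± 0.85 (0.00509; edgeR 0.0687) and Phlda1 by 3.21 ± 0.70 (0.00857), each called in 8 of 8 fits without 1 pool. Fos was at 3.15 without thymus pool 3 and 4.75 without thymus pool 1. In adipose tissue Ier2 rose by 1.45 ± 0.32 (limma adjusted p = 0.0135, 0.0541 without adipose pool 1). Egr1, an immediate early factor chosen after its values were seen, fell there by 3.51 ± 0.81 (0.0199; edgeR 0.177), a call lost without adipose pool 3 or 4 or thymus pool 1 or 2; the change was -4.34 without adipose pool 1 and -2.83 without adipose pool 4. The median of all 11 was -0.11 in arch and 0.37 in adipose tissue. Of 6 feedback inhibitors outside the phosphatases Spry1 rose in arch by 4.41 ± 1.13 (limma adjusted p = 0.0237; edgeR 0.472), with 543 to 999 counts in arch and 268.1 in 1 thymus pool while the other 3 were at 0; the call was lost without arch pool 2 or thymus pool 1, 2 or 3, and the change was 5.37 without thymus pool 4. Of 14 MAP kinase-activated kinases, RNA regulators and Gadd45 genes, Gadd45b, whose product activates a kinase of the p38 arm, rose in arch by 3.85 ± 0.90 (limma adjusted p = 0.0127; edgeR 0.116; 8 of 8 fits, at 3.01 without thymus pool 4). The list medians in arch and adipose tissue were -0.84 and 0.41 for MAP2 kinases, 0.08 and 0.13 for MAP3 and MAP4 kinases, -0.27 and -0.03 for Ras proteins and regulators, 1.46 and 0.52 for feedback inhibitors, and 0.63 and 0.10 for the list that holds Gadd45b. Without arch pools 2 and 4, Map3k5 and Ier2 stayed called in arch against thymus, whereas Ppp2ca, Araf, Rasgrp1, Spry1, Fos, Phlda1 and Gadd45b did not (limma adjusted p 0.0517 for Fos and 0.105 to 0.248 for the others).

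**Figure D4:**
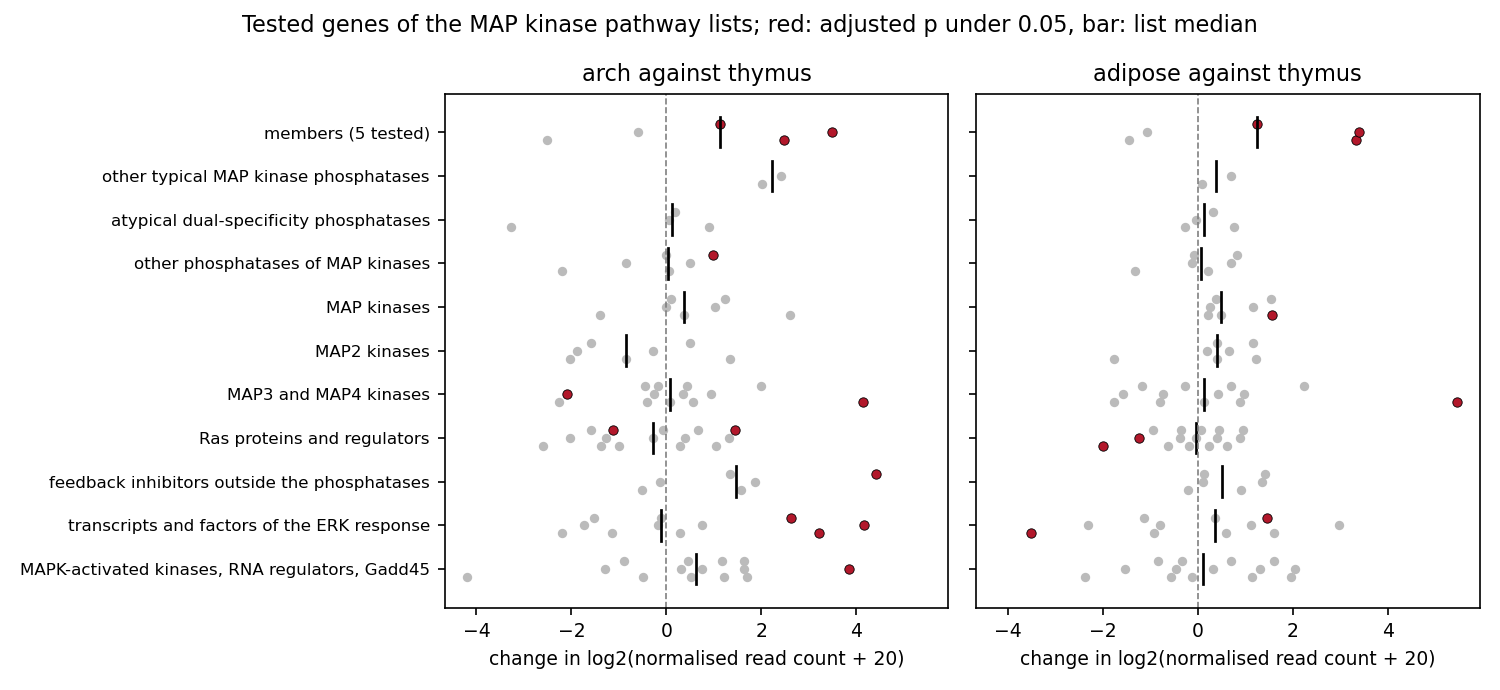
Change in log2(normalised read count + 20) on the x axis for every tested gene of the 6 phosphatases and of 10 pathway lists (rows), in arch against thymus (left) and adipose tissue against thymus (right), with red points for genes with a limma adjusted p under 0.05 and bars for list medians. Red points lie on both sides of 0 in several lists; the rightmost point in adipose tissue is Map3k5, which had no read in thymus.

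The genes whose log2 values followed each phosphatase most closely over the 12 pools were found without a test. The pools come from different tissues, and all genes of a pool share its libraries and depth, so these coefficients describe shared tissue patterns and shared gaps alike. For Dusp1 they were Morf4l2 (Pearson's r 0.971), the methionine aminopeptidase gene Metap2 (0.965) and the adhesion gene Mpzl2 (0.964), which changed in arch against thymus by 3.79, 1.63 and 6.31. For Dusp5 they were Vps37b, an endosomal sorting gene (0.946), Snx30 (0.927) and the branched-chain aminotransferase gene Bcat2 (0.926). Snx30, a sorting nexin gene, was also among the 3 nearest to Dusp10 (0.893), with Mcart1 (0.933) and Slc35b1 (0.881). For Dusp2 the nearest were Zbtb8os (0.972), the semaphorin gene Sema4d (0.966) and Dram2 (0.965), and for Dusp6 Tm9sf2 (0.928), Crnkl1 (0.927) and Adprhl2 (0.914).

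Some reads could belong to neighbouring transcripts. The longer annotated form of Dusp1 overlaps Ergic1 on the opposite strand, which had at most 1534 reads in a pool, and the longer form of Dusp10 spans 1700056E22Rik on the opposite strand, which had at most 307. Dusp5 overlaps AC137853.2 on the opposite strand, which was not analysed here. Whether the counting used strand is not given in the sources used here.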

How the data were processed

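RNA of sorted DP cells was measured in 26 libraries from 12 pools of mice. Per the labels, cDNA of the polyadenylated RNA of 200 cells went through 18 cycles of amplification before single-end sequencing at 50 bp. The submitters' processing notes name the build GRCm38, STAR 2.6.0c and FastQC 0.11.5. The sources used here do not say how reads were assigned to genes. The deposited values are a normalised signal, 1 column per pool. All 120369 values above 0 were whole multiples (within 0.01) of the step of their column, and the steps equal the inverse of DESeq2 size factors computed from the recovered reads. Recovered reads numbered 11577253 to 34599519 per column.

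The 9106 of 13765 genes that reached 100 in 4 or more columns entered 1 limma 3.58.1 fit (R 4.3.3, intensity trend, tissue as the term) on log2(normalised read count + 20), which understates changes of low genes. The pool of mice was the replicate (n = 4 per tissue), and p-values were adjusted over all tested genes by Benjamini-Hochberg and called under 0.05. Dusp4, below the filter, had exact permutation tests over 70 assignments. The recovered reads, whole for 100% of values, allowed edgeR 4.0.16 (quasi-likelihood, TMM) and DESeq2 1.42.0 as alternatives; edgeR called 365, 212 and 8 genes in arch against thymus, adipose tissue against thymus and arch against adipose tissue, where limma called 598, 259 and 16. The limma step was tested on simulated data. Amplified reads carry no molecular identifiers, so floors of 3 reads cover counting error only. Exon lengths came from GENCODE and promoters from RefSeq.

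The 6 genes and all lists were chosen with earlier results of these data known. Named were the 6 genes, the up to 3 called genes of each list with the smallest p, 5 defining kinases and the 3 most correlated genes of each tested phosphatase, leaving out predicted genes and clones; 2 genes that this rule names are not reported here, though the list counts and medians include them.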

Additional observations from a re-analysis of the deposited data

Results flagged for a closer look

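Of 18 groups of 4 pools (6 genes in 3 tissues), 1 held a pool far from the others. Dusp4 in thymus pool 1 had a normalised read count of 78.68, while the other 3 thymus pools were at 0. The rule compares the gap to the nearest pool with the range of the 4 pools. For normally distributed values, chance flags about 1 in 20 groups. With the other 3 pools at 0 the gap is the whole range at any value, so that rate does not apply to this flag. The gene reached 100 in 3 of 12 pools, where the filter on low values asked for 4.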

How the results depend on the processing

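Of 265 refitted changes of the 5 tested phosphatase genes, 1 per gene, comparison and alternative, 236 kept direction and side of the threshold, 17 lost a call and 12 changed sign. Changes not called in the main fit are among them and could not lose a call. The calls of Dusp1 in both comparisons with thymus and of Dusp5 in adipose tissue against thymus held in all alternatives (18 in arch and 17 in adipose tissue), the Dusp5 call in arch in 16, and the Dusp10 calls in 11 (arch) and 9 (adipose tissue). In a fit of the 8 arch and thymus pools alone limma called 1 phosphatase gene, Dusp1, and 422 of all 9106 tested genes. The main fit called 598 of all tested genes. Dusp5 was at a limma adjusted p of 0.0784 and Dusp10 at 0.0783 in that smaller fit, with fewer samples. Without 1 pool, between 1 and 3 phosphatase genes were called in arch against thymus, and 404 to 620 of all tested genes. Without the filter Dusp10 was at 0.0812 and 0.0872.

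Over all genes, arch against thymus gave 365 calls with edgeR, 1006 with DESeq2, 308 without the 3 columns of fewest reads per library (arch pools 2 and 4, thymus pool 3), 334 without arch pools 2 and 4, and 404 to 620 without 1 pool. Adipose tissue against thymus gave 540 with DESeq2 and 169 to 250 without 1 pool. Arch against adipose tissue gave 8 with edgeR, 172 with DESeq2, 9 with a pseudocount of 5, 2 without the filter, 0 in limma without the 3 columns or without arch pools 2 and 4, and 2 to 14 without 1 pool. The cause was not tested.

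Signs changed only for values that passed no test. Dusp6 in arch against thymus was at 0.19 with edgeR, 0.17 with DESeq2, 0.73 without the 3 columns, 1.10 without arch pools 2 and 4, and -1.29 to 1.08 without 1 pool. In arch against adipose tissue, Dusp5 was at 0.10 and Dusp10 at 0.23 without the 3 columns and without arch pools 2 and 4. Without 1 pool, Dusp2 ranged there from -2.13 to 0.0898, Dusp6 from -0.53 to 2.54 and Dusp10 from -0.36 to 0.16.

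Pool numbers are shared across tissues, but the labels do not say that they mark the same mice. The 12 correlations of same-numbered pools ran from -0.03 to 0.08 (median 0.029), 0 of them above 0.1. Those of the 36 other pairs of pools from different tissues ran from -0.09 to 0.07 (median -0.004), also with 0 above 0.1. A pool correlated best with the pool of its own number in 11 of 24 comparisons. With the replicate block limma called 608, 243 and 12 genes in arch against thymus, adipose tissue against thymus and arch against adipose tissue, and 3, 3 and 0 of the phosphatase genes. Dusp4 had reads in 6 of 12 pools, and Dusp2 and Dusp6 each had pools at 0.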
